A study of Mus musculus with 4 samples.

Results

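Egr1, Egr2, Egr3, Nr4a1, Nr4a2 and Nr4a3 encode transcription factors that T cells switch on within minutes to hours of a T cell receptor signal. Open chromatin around these 6 genes was compared between Maf KO and Maf WT fetal γδ thymocytes. The KO libraries came from Maf fl/fl Il7r-Cre fetuses and the WT libraries from Maf+/+ Il7r-Cre fetuses, with 2 libraries per genotype, so both groups carried the Cre recombinase driven from Il7r, a gene of early lymphoid cells. Fetuses were pooled at embryonic day 17 to 18 on a C57Bl/6 background after 5 backcross generations, and the sorted thymocytes were TCRγδ+, CD3ε+, CD4-, CD8-, CD24+ and CD45RB-low. Each library held the product of 15000 to 17000 sorted cells treated by Omni-ATAC, in which Tn5 transposase inserts adapters into accessible DNA, after 9 to 11 PCR cycles. Peaks of the 4 libraries that overlapped by at least 1 bp were merged, and a region was kept when its nearest protein-coding gene body within 100 kb was 1 of the 6. This rule took 60 of 171490 regions. Since each library is a bulk pool, fewer cells with an open site and less opening per cell cannot be told apart.

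The factors belong to different families. The Egr proteins are zinc finger factors induced through the MAP kinase pathway and serum response factor, bind a GC-rich element, and are held in check by the NAB co-repressors. The Nr4a proteins are orphan nuclear receptors induced by calcium and cAMP signals, with Nr4a1, also called Nur77, used widely as a reporter of T cell receptor signalling. In γδ thymocytes strong receptor signals act through Egr factors and their target Id3, and receptor signal strength is known to bear on the choice between an interferon-γ and an interleukin-17 fate. Maf is required for the interleukin-17 fate.

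The promoter sequences show which elements lay under the shared gene-start peaks. RefSeq windows of GRCm38.p6 were found for 4 of the 6 genes, and each of the 4 windows lay under a peak whose summit fell inside it in every library. For Egr2, which has 5 windows, the window was chosen for holding most summits, so this follows from the choice there. The 250 bases before the annotated start are given 5′ to 3′ on the gene's strand. They are chr10:67537620-67537869 on the plus strand for Egr2, chr15:101266596-101266845 on the plus strand for Nr4a1, chr2:57124004-57124253 on the minus strand for Nr4a2 and chr4:48045055-48045304 on the plus strand for Nr4a3. Capitals mark matches to the CArG box bound by serum response factor, to the EGR element GCGNGGGCG and to TGACG, the core of the cAMP response element, on either strand.
Egr2: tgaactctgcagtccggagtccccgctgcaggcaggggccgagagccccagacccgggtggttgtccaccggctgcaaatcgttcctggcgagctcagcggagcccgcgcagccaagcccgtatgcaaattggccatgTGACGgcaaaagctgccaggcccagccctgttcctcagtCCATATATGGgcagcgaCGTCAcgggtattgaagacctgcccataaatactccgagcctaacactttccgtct
Nr4a1: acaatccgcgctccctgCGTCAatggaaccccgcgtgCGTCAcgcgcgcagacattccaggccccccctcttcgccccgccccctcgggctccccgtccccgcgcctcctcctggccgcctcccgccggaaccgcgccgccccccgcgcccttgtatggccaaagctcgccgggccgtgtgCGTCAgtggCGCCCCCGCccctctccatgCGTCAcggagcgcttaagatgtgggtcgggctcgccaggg
Nr4a2: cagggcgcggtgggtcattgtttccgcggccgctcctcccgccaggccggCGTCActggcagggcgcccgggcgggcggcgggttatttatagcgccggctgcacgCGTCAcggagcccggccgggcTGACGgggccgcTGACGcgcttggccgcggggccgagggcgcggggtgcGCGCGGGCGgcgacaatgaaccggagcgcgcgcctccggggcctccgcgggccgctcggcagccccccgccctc
Nr4a3: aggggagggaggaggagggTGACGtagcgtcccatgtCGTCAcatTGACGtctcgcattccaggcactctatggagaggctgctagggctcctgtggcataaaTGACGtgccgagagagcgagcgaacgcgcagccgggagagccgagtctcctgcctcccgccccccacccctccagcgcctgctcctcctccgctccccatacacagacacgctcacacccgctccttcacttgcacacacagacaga

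Egr2 alone among these 4 promoters held a CArG match, at positions -73 to -64 from the gene start, which 1.64% of 32619 RefSeq windows of 300 bases also held. An EGR element was found in Nr4a1 at -60 to -52 and in Nr4a2 at -74 to -66, a match present in 5.59% of windows. The TGACG core occurred 4 times in each of the Nr4a1, Nr4a2 and Nr4a3 windows, a number reached by 0.233% of windows, and 2 times in Egr2, reached by 5.04%. This core was added to the search after the sequences had been read, and none of these shares was corrected for the base composition of the windows, whose GC content was 59.7% in Egr2, 72.3% in Nr4a1, 81.7% in Nr4a2 and 64.7% in Nr4a3. In none of the 4 windows was there a match to the full cAMP response element TGACGTCA, held by 1.80% of windows, to the Nr4a element AAAGGTCA, held by 1.52%, to the AP-1 element TGANTCA, held by 7.85%, or to TGCTGA, the core of the element that Maf proteins bind, held by 19.5%. These matches overlap no other listed motif.

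Peak numbers were 130935 and 120141 in the KO libraries, against 102718 and 132179 in the WT libraries. Read totals were not used here, so depth was described by the background pileup, the number of reads or fragments expected at an unremarkable position, which was 0.877 and 0.758 in the KO libraries, against 1.57 and 1.38 in the WT libraries. The background was lower in both KO libraries, and its part in the calls below was not tested. Around the targeted gene, Maf, within 1 kb of its body, the highest peak had 7 and 7 overlapping reads or fragments in the KO libraries, against 101 and 173 in the WT libraries. Peaks lay at 13 of 13 γδ T cell marker genes in each library and at none of Pax5, Csf1r, Lyz2, Mpo, Gata1 or Pdgfra. Of other non-T markers, Cd79a and Itgam had a peak in all 4 libraries, Hbb-bt in KO 1 and WT 2 and Klf1 in KO 1, and 3 and 4 of 5 stromal and epithelial markers had one in the KO libraries, against 4 and 4 in the WT libraries. The part of other cell types in the results was not tested. Nothing in the labels tells if both libraries of a genotype were made from 1 pool of fetuses, so their spread may be technical. With 2 libraries against 2, the smallest two-sided exact permutation p is 0.333, so every comparison here is a description.

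The Egr and Nr4a genes had open chromatin in both genotypes, and most of their regions were shared. Of the 60 regions, 49 were called in at least 2 libraries, and 36 of these 49, or 73.5%, were called in all 4, against 64.2% of such regions across the genome. Peaks at the 6 genes covered 13416 and 14596 bp in the KO libraries, against 12851 and 16010 bp in the WT libraries, and the 2 ranges overlap. KO-only regions, called in both KO libraries and in neither WT library, numbered 2, or 4.08% of the 49, against 4.34% of all regions, and WT-only regions numbered 2 as well, 4.08% against 2.89%. Both counts lay near the share found genome-wide. The remaining regions were 5 called in 3 libraries, 4 called in 1 KO and 1 WT library, and 11 called in a single library.

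By gene, Egr1 had 10 regions with 6 shared by all libraries, Egr2 had 11 with 7 shared, and Egr3 had 6 with 4 shared. Nr4a1 had 12 regions with 6 shared, Nr4a2 had 8 with 6 shared, and Nr4a3 had 13 with 7 shared. Egr2, Egr3 and Nr4a2 had neither a KO-only nor a WT-only region. The rule kept only regions within 100 kb of a gene body. Of the 60 regions 24 touched a gene body, and 27 of the 36 shared regions lay within 10 kb. The farthest lay 80.2 kb from Nr4a3 and 75.3 kb from Egr2. These distances were not set against those of all regions. A further 12 regions had 1 of the 6 as their nearest gene but lay beyond 100 kb and were left out. Summits of shared regions spread over a median of 38 bp between the 4 libraries, against 41 bp for all shared regions, with a maximum of 137 bp, and 10 of the 36 had summits within 10 bp of each other.

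**Figure D1:**
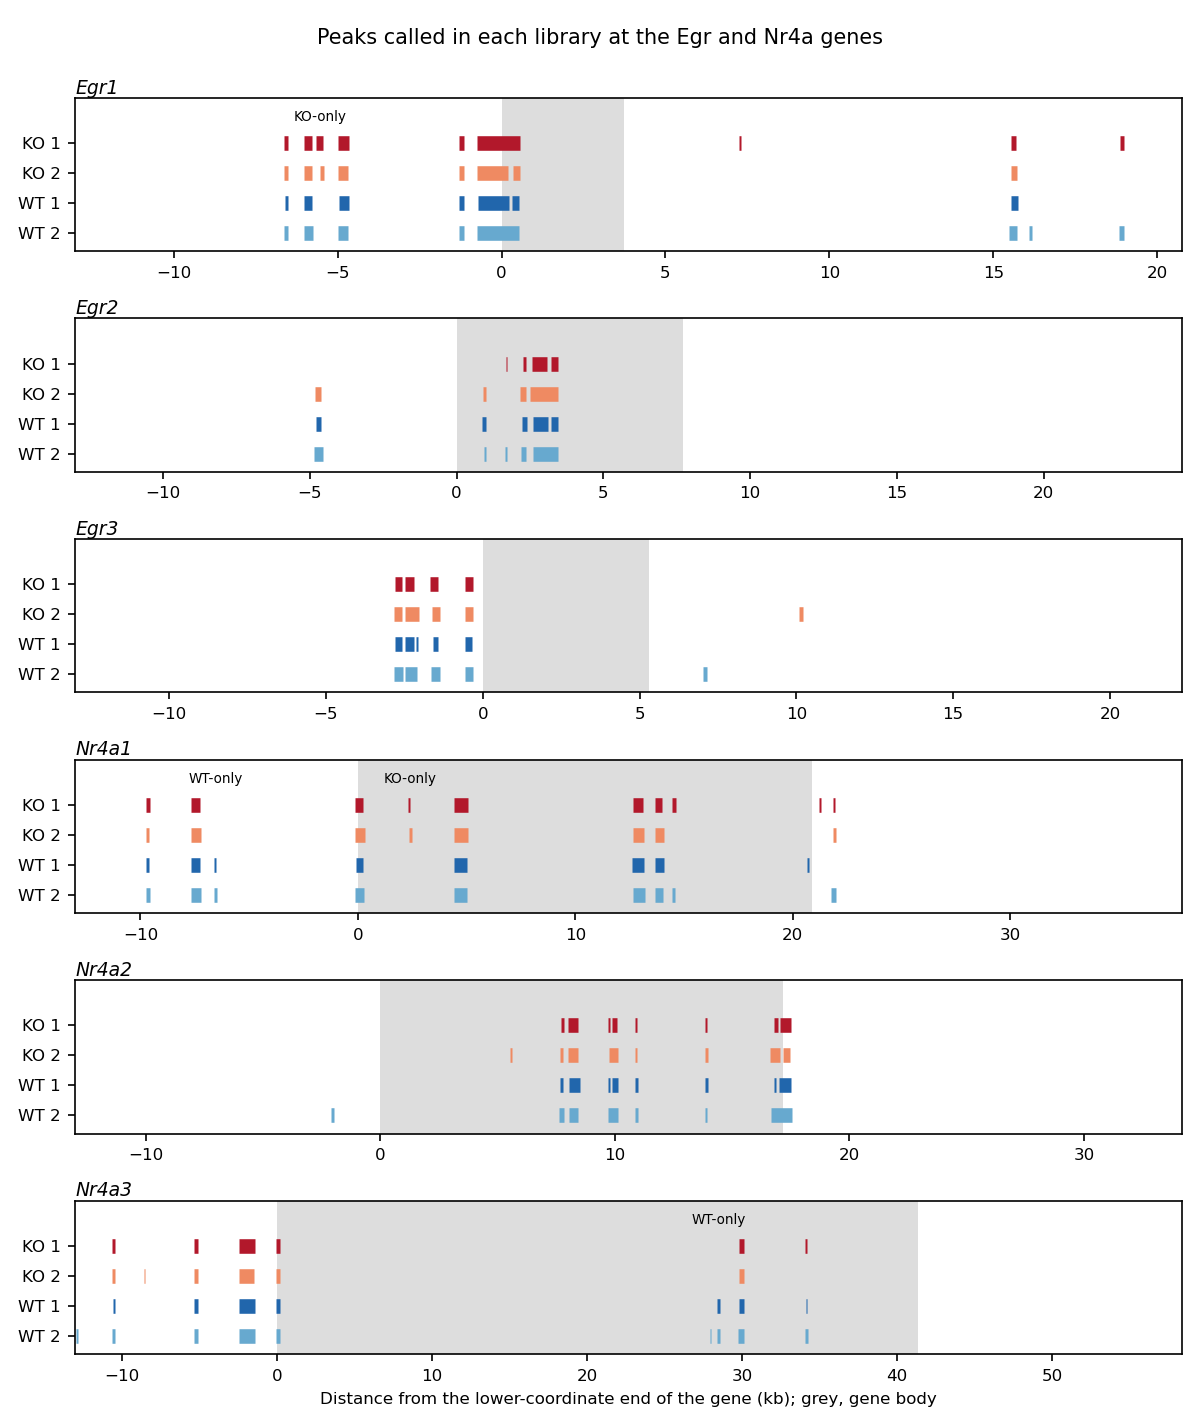
Peaks of each library at the 6 genes, against distance in kb from the gene end with the lower coordinate; grey marks the gene body, bars are peaks, and KO libraries stand above WT libraries. The view ends 13 kb below and 17 kb above each gene, which leaves out 6 Egr2 and 3 Nr4a3 regions farther below, and the labels KO-only and WT-only mark the 2 regions of each kind.

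All 6 genes had a peak in every library at or beside the gene start. Of genes with a RefSeq start window, 40.5% had it under a peak in all 4 libraries, and so had the 4 members with a window. Peaks are described by the summit pileup, the number of overlapping reads or fragments at the highest point, and by percentiles, the rank of a peak among all peaks of its own library with 100 for the highest. The fold percentile ranks the authors' enrichment over the local background, and the pileup percentile ranks the summit itself. Raw pileups were not scaled for depth, so their overlap or separation between genotypes is a description only. The median pileup of all peaks was 15 and 18 in the KO libraries, against 18 and 22 in the WT libraries. By pileup the gene-start peaks of Egr1, Egr2, Nr4a1 and Nr4a3 ranked between 95.0 and 99.1 in every library, that of Egr3 lower, and that of Nr4a2 near the middle.

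Egr1, the fastest-induced Egr gene, occupies chr18:34861207-34864956 and had the tallest gene-start peak of the 6. Its region, 34860453 to 34861772, had summit pileups of 206 and 235 in the KO libraries, against 188 and 282 in the WT libraries. The pileup percentiles were 99.068 and 98.936 in KO, against 98.932 and 98.882 in WT, higher in both KO libraries by a mean of 0.09 points. The summit fell on the same base, 348 bp below the gene end with the lower coordinate, in all 4 libraries. Peaks there covered 1320 and 1163 bp in KO, against 1170 and 1287 bp in WT, so raw height and covered width overlapped between genotypes. In KO 2 and WT 1 the covered width was the sum of 2 peaks. In fold percentile the same region stood at 82.0 and 75.3 in KO and at 83.5 and 72.0 in WT.

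Egr2, which with Egr3 restrains T cell activation and is needed for NKT cells to develop, lies at chr10:67534469-67542188. Its region at the sequence given above, 67536961 to 67537937, had summit pileups of 144 and 152 in the KO libraries, against 129 and 210 in the WT libraries. The pileup percentiles were 97.8 and 97.0 in KO, against 97.3 and 97.7 in WT. Summits fell at -67 and -67 from the start in KO and at -67 and -69 in WT, inside the CArG match. Heights overlapped between genotypes, as did covered widths of 765 and 965 bp in KO and 765 and 870 bp in WT. In KO 1 and WT 1 the covered width was the sum of 2 peaks.

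Egr3 lies at chr14:70077317-70082613, and no peak was called inside its gene body in any library. The nearest region, 70076735 to 70077002, ended 0.315 kb from the lower gene end. It had summit pileups of 53 and 68 in the KO libraries, against 61 and 99 in the WT libraries, which overlap. Its pileup percentiles, 87.6 and 88.2 in KO against 89.0 and 90.7 in WT, did not overlap, nor did its fold percentiles of 69.4 and 66.8 in KO against 78.2 and 72.1 in WT.

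Nr4a1 lies at chr15:101253902-101274795, and its annotated promoter window lies inside that body. The region over it, 101266529 to 101267126, had summit pileups of 143 and 170 in the KO libraries, against 118 and 178 in the WT libraries. The peak was narrower in both KO libraries, at 478 and 493 bp, against 549 and 593 bp in the WT libraries. Its pileup percentiles went the other way, at 97.7 and 97.6 in KO against 96.7 and 96.7 in WT. Summits fell at -23 and +11 from the start in KO and at +9 and +9 in WT.

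Nr4a2, also called Nurr1, lies at chr2:57106830-57124003 on the minus strand and had the lowest gene-start peak of the 6. Its region, 57123452 to 57124363, which lies equally near to the gene LOC105244150, had summit pileups of 19 and 23 in the KO libraries, against 17 and 30 in the WT libraries. Pileup percentiles were 59.5 and 58.7 in KO, against 45.7 and 62.0 in WT. Peaks there nevertheless covered 607 and 728 bp in KO and 582 and 891 bp in WT. Neither height nor covered width separated the genotypes. The widths are sums over 2 peaks in KO 1, KO 2 and WT 1, with 1 peak in WT 2.

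Nr4a3, also called Nor1, lies at chr4:48045078-48086447. The gene-start region, 48045007 to 48045294, was narrow and tall, with fold enrichments over the local background of 9.45 and 9.86 in the KO libraries, against 11.3 and 9.52 in the WT libraries. Widths were 258 and 252 bp in KO, against 238 and 288 bp in WT. Pileup percentiles were 95.1 and 95.0 in KO, against 96.2 and 95.8 in WT, lower in both KO libraries with a mean difference of -0.96 points. All 4 summits lay within 2 bp of each other, at -178 and -177 from the start in KO and at -179 and -177 in WT, between the TGACG matches that end at -201 and begin at -147.

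**Figure D2:**
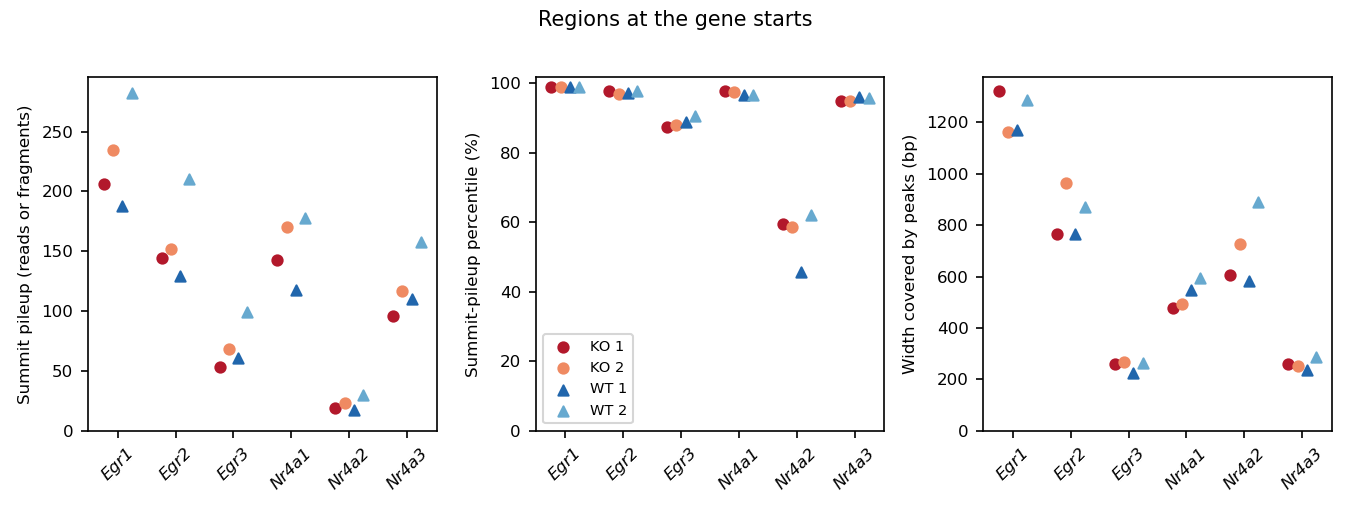
Gene-start regions of the 6 genes, with summit pileup in reads or fragments (left), pileup percentile within the library (middle) and covered width in bp (right); each point is 1 library, KO left of WT. The Egr1 peak was the tallest and its region had the largest covered width. The Nr4a2 peak was the lowest, and the raw pileups of the 2 genotypes overlapped at all 6 genes.

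The strongest region of a gene by mean fold percentile was the gene start for Egr1 alone. For Egr2 it lay 30.5 kb below the gene, at 67503379 to 67503962, with fold percentiles of 88.6 and 92.8 in the KO libraries, against 87.5 and 87.8 in the WT libraries. For Egr3 it lay 2.04 kb below the gene, at 70074839 to 70075274, with 80.1 and 75.0 in KO, against 82.6 and 77.3 in WT. The Egr2 region ranked slightly higher in both KO libraries, and the Egr3 region overlapped. Strongest refers here to fold alone. By summit pileup the Egr2 gene start was taller, at 144 and 152 in KO and 129 and 210 in WT. The region 30.5 kb below Egr2 had 66 and 96 in KO and 58 and 99 in WT.

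Among the Nr4a genes, the strongest region of Nr4a1, 101246231 to 101246667, lay 7.24 kb below the gene body, and farther from the annotated start at 101266846. This region had fold percentiles of 94.8 and 91.6 in KO, against 92.4 and 92.7 in WT. Its summit pileups, 166 and 175 in KO against 117 and 253 in WT, were of the order of those at the gene start. In Nr4a2 the strongest region was internal, at 57114843 to 57115349, with pileups of 75 and 91 in KO and 56 and 122 in WT, well above the gene-start pileups of the same gene. In Nr4a3 it was also internal, at 48074817 to 48075220, with fold percentiles of 95.8 and 95.6 in KO, against 92.1 and 93.1 in WT, so the KO libraries stood above the WT libraries by a few points. Whether these internal peaks lie in exons or introns is not given by the annotation used here. By summit pileup the internal Nr4a3 region, at 85 and 114 in KO and 77 and 124 in WT, was not the tallest of its gene. The shared region 1.39 kb below Nr4a3, 48042626 to 48043685, had 135 and 175 in KO and 123 and 193 in WT.

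Egr1 had a further cluster of shared peaks below the gene. At 4.66 kb the region 34856218 to 34856551 had summit pileups of 164 and 155 in the KO libraries, against 145 and 241 in the WT libraries, and at 5.74 kb the region 34855179 to 34855471 had 107 and 117 in KO, against 95 and 176 in WT. Neither region separated the genotypes in height. The region 1.14 kb below Egr1, 34859904 to 34860070, shows how the measures part: its pileup percentiles were 83.6 and 86.2 in KO and 82.8 and 88.4 in WT, while its fold percentiles were 0.228 and 1.61 in KO and 1.27 and 3.05 in WT. The local background there was 15.5 and 18.3 in KO and 14.8 and 27.3 in WT. Of the 36 shared regions, 11 were below the fold percentile of 50 in every library, and 9 of these 11 were above the pileup percentile of 50 in every library.

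The genotype-only regions were 4 small sites at 3 genes, and the KO-only regions were low by fold. Inside Nr4a1, 101256192 to 101256397 had pileups of 27 and 31 in the KO libraries, with −log10 q of 4.51 and 3.96 and fold percentiles of 0.717 and 0.110. In the upstream cluster of Egr1, 5.41 kb from the gene, 34855554 to 34855800 had pileups of 32 and 37 in the KO libraries, with −log10 q of 7.10 and 8.13, and stood at fold percentiles of 5.42 and 2.23. By pileup percentile the Nr4a1 site stood at 71.8 and 69.2 in KO and the Egr1 site at 76.7 and 74.6. Both sit between taller shared peaks, and since a list holds no value for a site it did not call, no fold between genotypes is given.

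The WT-only regions differed more in rank. Inside Nr4a3, 48073456 to 48073658, 28.4 kb from the lower gene end, was called in neither KO library and in both WT libraries. Its summit pileups were 25 and 40 in the WT libraries, with −log10 q of 12.2 and 23.5 and fold percentiles of 53.0 and 59.0. By fold it ranked highest of the 4 sites, but by pileup its percentiles of 64.1 and 71.4 in WT were below those of the Egr1 site in KO. The strongest Nr4a3 region by fold, shared by all 4 libraries, lies next to it. Below Nr4a1, 6.49 kb from the gene, 101247290 to 101247409 was WT-only with pileups of 17 and 31 and −log10 q of 2.72 and 5.51, and its fold percentiles were 1.16 and 2.59, near the bottom of the lists, while its pileup percentiles were 45.7 and 63.1.

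Ranks of the 36 shared regions moved in both directions. By fold percentile 4 regions, or 11.1%, were higher in both KO libraries than in both WT libraries, against 21.0% of all shared regions, and 6, or 16.7%, were lower in both, against 13.4%. The 4 higher regions belonged to Egr2 and Nr4a3, with 2 each, and the 6 lower regions comprised 2 of Nr4a2 and 1 each of Egr1, Egr2, Egr3 and Nr4a1. The median difference between KO and WT means was -1.99 percentile points, against 1.22 for all shared regions. By pileup percentile 7 regions, or 19.4%, were higher in both KO libraries, against 24.8% of all, and 3, or 8.33%, were lower, against 11.3%, with a median difference of 0.46 points against 1.70. The sign of the median therefore differed between the 2 measures, and without the library KO 2 the fold median was 0.84. The 4 regions higher in KO by fold were also higher by pileup, while 2 of the 6 lower ones, at Egr1 and Egr3, were lower by both.

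A region 11.7 kb above Egr1, 34876687 to 34876948, differed most in rank among those lower in KO. Its fold percentiles were 30.8 and 31.2 in the KO libraries, against 55.7 and 60.6 in the WT libraries. Summit pileups were 8 and 9 in KO, against 16 and 19 in WT, and widths were 141 and 184 bp in KO, against 206 and 236 bp in WT. All 3 measures were lower in both KO libraries than in both WT libraries. Pileups and widths were not scaled for depth, however. The local background at this site was also lower, at 0.877 and 0.758 in KO, against 1.57 and 1.38 in WT. Its part in the difference was not tested. The lowest pileup called anywhere was 5 and 5 in the KO libraries, against 7 and 6 in the WT libraries, so the KO summits here were close to that limit.

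In the other direction, 2 further distal regions ranked higher in both KO libraries, besides the Egr2 region 30.5 kb below the gene described above. The Nr4a3 region 10.4 kb below the gene, 48034437 to 48034652, had fold percentiles of 65.2 and 59.2 in the KO libraries, against 31.5 and 46.8 in the WT libraries, and pileups of 17 and 20 in KO, against 11 and 14 in WT. The Egr2 region 54.2 kb below the gene, 67480084 to 67480289, had fold percentiles of 60.9 and 37.5 in KO, against 17.7 and 33.4 in WT. It was also wider, at 157 and 157 bp in KO against 77 and 99 bp in WT, with pileups of 14 and 10 in KO and 9 and 11 in WT. In fold percentile KO 1 stood well above WT, and KO 2 was close to WT 2. The Nr4a3 pileups did not overlap between genotypes, and the Egr2 pileups did. The distal regions of Egr1 at 11.7 kb, Nr4a3 at 10.4 kb and Egr2 at 54.2 kb were singled out after their values had been seen.

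The remaining lower regions were modest. An internal Egr2 region, 67536621 to 67536855, stood at fold percentiles of 14.7 and 0.940 in KO, against 20.8 and 30.8 in WT. In Nr4a1 the region 101267563 to 101267994 stood at 34.7 and 21.8 in KO, against 40.0 and 36.9 in WT. In Nr4a2 the region 57116526 to 57116983 had 42.2 and 29.2 in KO, against 50.0 and 47.7 in WT, and the region 57117694 to 57117817 had 25.9 and 27.1 in KO, against 29.0 and 35.7 in WT. None of these 4 regions was lower in both KO libraries by pileup percentile.

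**Figure D3:**
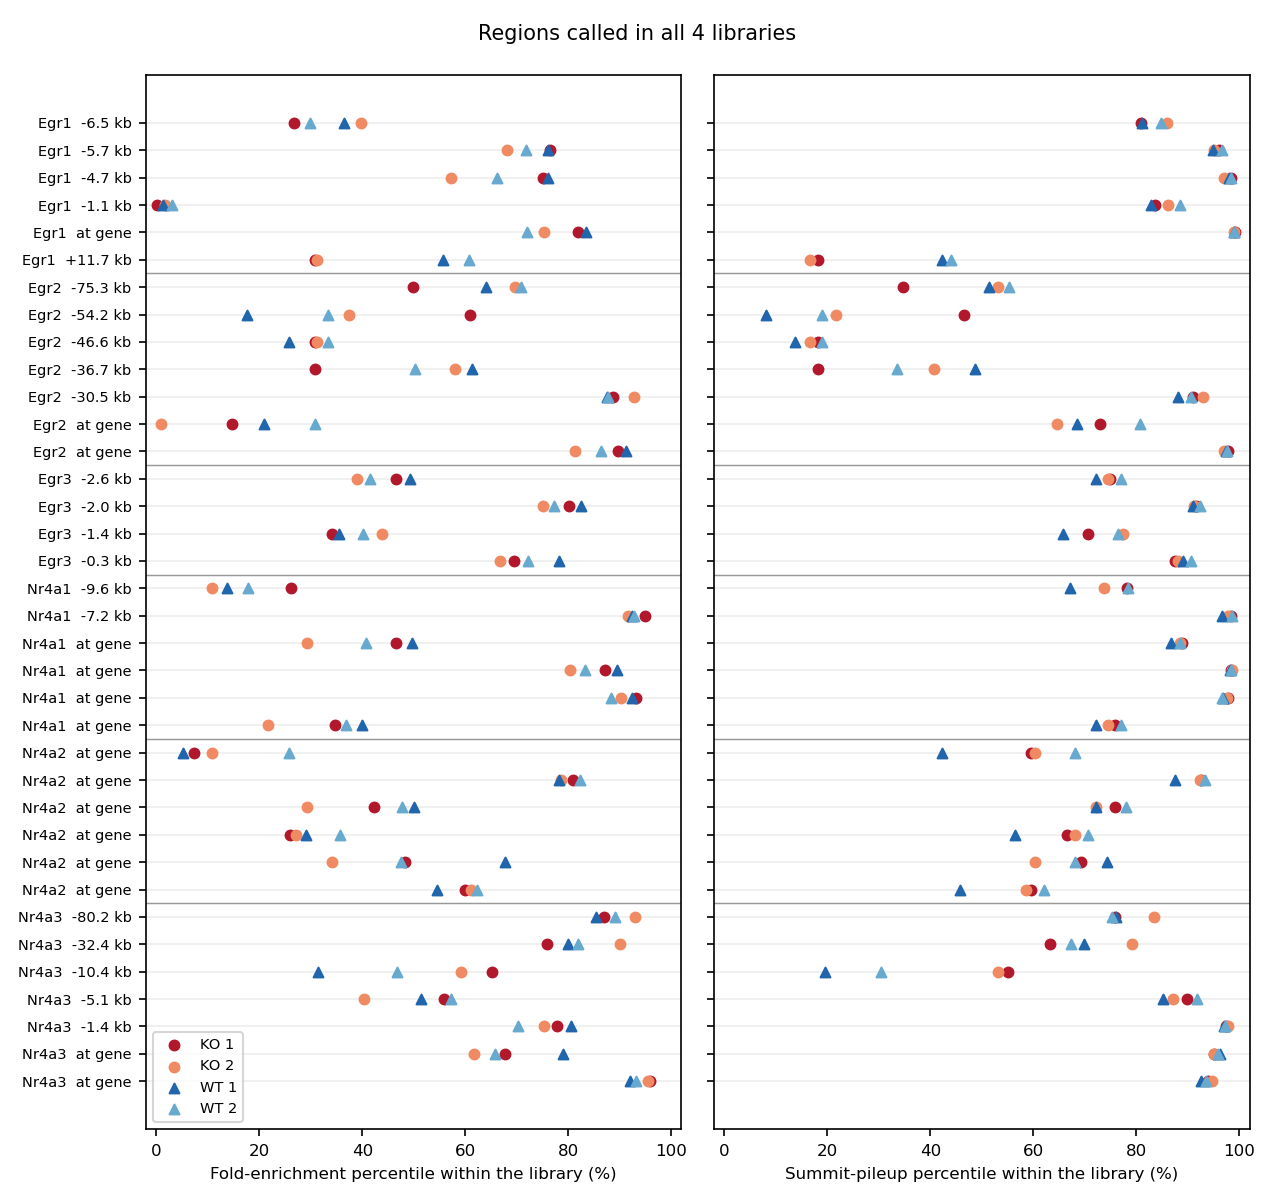
Fold percentile (left) and summit-pileup percentile (right) of the 36 regions called in all 4 libraries, 1 row per region with its distance from the gene in kb; circles are KO and triangles WT libraries. Most rows mix the genotypes, the Egr1 region at +11.7 kb has both KO libraries on the left, and the Nr4a3 region at -10.4 kb has both on the right.

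Peak widths differed little. Wider in both KO libraries than in both WT libraries were 2 regions, or 5.56%, against 17.2% of all shared regions, and narrower were 6, or 16.7%, against 12.5%. The wider regions were that of Egr2 at 54.2 kb and an internal one of Nr4a1, 101258311 to 101258959, with 631 and 649 bp in KO, against 627 and 608 bp in WT. The median log2 ratio of KO to WT width was -0.04, against 0.03 for all shared regions. In Nr4a2 the mean width was smaller in KO at all 6 shared regions, with a median log2 ratio of -0.18, yet the libraries separated at 1 of them, 57114456 to 57114662, with 132 and 136 bp in KO, against 139 and 207 bp in WT.

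**Figure D4:**
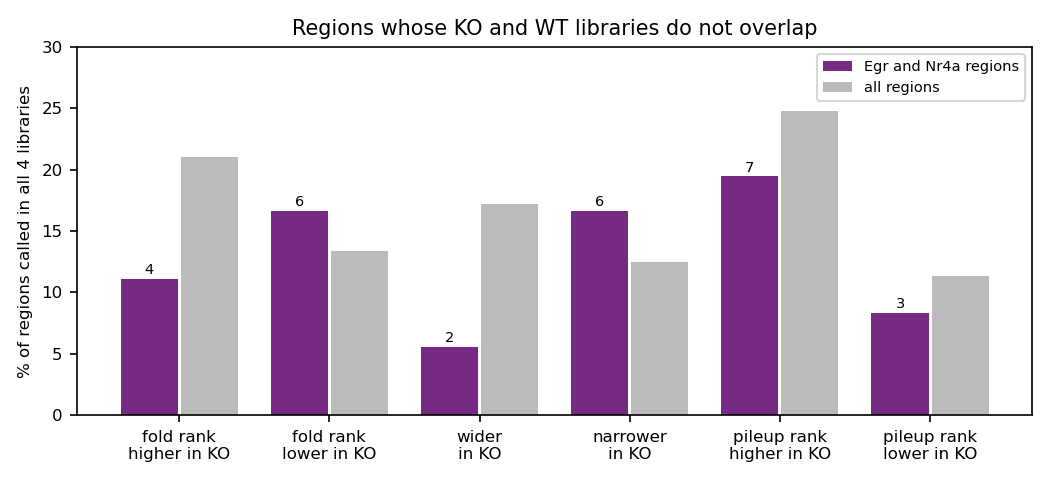
Percent of regions called in all 4 libraries whose values in both KO libraries lay above, or below, those in both WT libraries, by fold percentile, width and pileup percentile; purple bars are the 36 Egr and Nr4a regions with their counts on top, grey bars all 78650 shared regions. The purple bars run from 2 regions wider in KO to 7 regions higher in KO by pileup.

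Genes acting with the 6 factors were described from a list of 34: the relatives Egr4 and Wt1, the NAB co-repressors, the serum response factor group, known targets such as Id3, phosphatases and Sprouty proteins that restrain MAP kinases, and other genes induced by receptor signals. They had 484 regions called in at least 2 libraries, of which 340, or 70.2%, were shared by all 4, against 64.2% genome-wide. KO-only regions numbered 20, or 4.13%, and WT-only regions 13, or 2.69%, both near the genome-wide shares. Of the 34 genes, 11 had a KO-only region, 11 a WT-only region, 4 of them both, and 16 neither. These counts of genes were not set against all genes. Of the 28 with a RefSeq start window, 26 had it under a peak in all 4 libraries, and Tnfrsf9 and Spry2 in 2. Among all genes with such a window, 40.5% had it under a peak in all 4.

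Genome-wide, 4.34% of regions called in at least 2 libraries were KO-only and 2.89% WT-only. Upstream of the Egr genes, Srf, Elk1, Elk3 and Elk4 had neither kind of region among 29, a small number beside these shares. The co-repressor genes Nab1 and Nab2 had 1 WT-only region each and no KO-only region among 19. That is 10.5% WT-only, against 2.89% genome-wide, and rests on 1 region per gene. Among the MAP kinase brakes, WT-only regions were 2 at Spry1 and 1 each at Dusp5 and Dusp6, and KO-only regions 1 each at Dusp6 and Spry2, among 78 in all, or 2.56% KO-only and 5.13% WT-only. The known targets Id3, Cblb, Fasl, Bcl2l11 and Tnfrsf9 held 9 KO-only regions among 115, or 7.83% against 4.34% genome-wide, and 4 WT-only, or 3.48% against 2.89%. These included 4 KO-only and 2 WT-only at Cblb, which encodes a ubiquitin ligase that damps receptor signals. Another 3 KO-only were at Bcl2l11, which encodes the pro-death protein Bim. Summit pileups of the KO-only sites were 5 to 9 at Cblb and 7 to 11 at Bcl2l11, with −log10 q from 1.43 to 8.05. The WT-only sites at Cblb had pileups of 9 to 26. The lowest pileup called anywhere was 5 and 5 in KO, against 7 and 6 in WT, and its part in these shares was not tested. At Id3 the single genotype-only region, 33.5 kb from the gene at chr4:136110075-136110287, was WT-only with −log10 q of 3.14 and 16.2. Of the other induced genes, Jun, Ier5, Myc and Nfatc1 held 2 KO-only regions each and Cd69 held 1, while Fos, Fosb and Jun held 1 WT-only region each, among 240, or 3.75% KO-only and 1.25% WT-only.

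The share of a library's covered bases that fell at each gene gave a further description. Averaged over the 6 genes, the log2 share centred on the 4 libraries was -0.11 and -0.02 in the KO libraries, against 0.16 and -0.03 in the WT libraries. The WT 1 library stood highest and the other 3 lay close together, so genotype did not order them. In all, peaks covered 25.8 and 26.8 Mb in the KO libraries, against 20.6 and 29.5 Mb in the WT libraries. WT 1, highest by share, thus had the smallest total, and it also covered the fewest bases at the 6 genes, 12851 bp. Among 9820 genes with at least 4 regions, the 5 nearest in this profile over the 4 libraries were Gm46430, Mif, Hdac4, Bcl2l13 and Tigit, at distances of 0.0123 to 0.0263, where the median gene lay at 0.311. The 6 genes themselves lay 0.125 to 0.290 from their own mean, with Nr4a1 the nearest and Egr1 the farthest, and between 7.89% and 45.5% of other genes lay nearer than they did.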

How the data were processed

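The authors deposited 1 peak list per library, and per the submitters' processing notes MACS2 2.1.1, Bowtie2 2.3.4.1, deepTools 3.1.2, bedtools, Picard, cutadapt and Trim Galore were used, in roles not stated, with the builds GRCm38 and mm10. Not given in the sources used here are the Tn5 read shift, duplicate handling and peak settings. Deposited columns hold a whole-number score (10 times −log10 q), a fold enrichment (a ratio over local background), −log10 p, −log10 q ending at q of 0.1, and the summit offset. These are the authors' values. Percentiles were taken within a list. Fold enrichments, pileups and widths were also set side by side between libraries, without scaling for depth. The summit pileup and local background were solved from the deposited fold and −log10 p under a Poisson model, and came out whole within 0.02 for at least 99.997% of peaks in each library.

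Peaks on chromosomes 1 to 19 and X were merged and assigned with RefSeq GRCm38 gene bodies, which carry no strand or exons. A region took its highest peak in each library, and its width was the summed widths of all its peaks there. Values are KO over or minus WT; positions are 1-based. The members and gene lists were chosen with earlier results of these data known. Genes given with values beyond the 6 are those of the list with a genotype-only region, the gene-start exceptions and the 5 nearest profiles, and others are named to say what the list holds; each of the 6 was described at its start, its strongest region and every genotype-only region. For Egr2, with 5 start windows, the window holding most summits was shown. For Egr1 and Egr3 the gene end with the lower coordinate replaced the start. Alternatives were a −log10 q of at least 5, equal list lengths, 0.5 of a region covered, 20 kb, other ranks and widths, a replicate block and each library left out. The rank of pileup was added after seeing the data. Python 3.11.15, pandas 2.3.3, NumPy 2.4.6, SciPy 1.17.1 and matplotlib 3.10.9 were used, and the scripts were tested on simulated peaks.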

Additional observations from a re-analysis of the deposited data

How the results depend on the processing

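The 36 regions shared by all libraries stayed within 1.5 times under every alternative. For the 4 genotype-only regions the alternatives only removed peaks, calls, libraries or regions. These sites could therefore lose calls but could not change direction. KO-only regions, 2 in the reported setting, were 1 at −log10 q of at least 5, 1 with equal numbers of peaks and 1 with at least 0.5 of the region covered. Genome-wide the KO-only shares in these settings were 4.044%, 3.878% and 5.201%, against 4.335% as reported. WT-only regions, also 2, were 1 at −log10 q of at least 5 and 4 with equal numbers of peaks. Their genome-wide share moved as well, from 2.891% as reported to 2.255% and 4.057%. Regions ranked higher in both KO libraries, 4 as reported, were 1 at −log10 q of at least 5 (3.333%, against 20.75% of all shared regions). They were 2 within 20 kb (6.897% against 20.97%), 7 by rank of −log10 q (19.44% against 23.84%) and 7 by rank of pileup (19.44% against 24.78%). Those ranked lower, 6 as reported, were 10 with equal numbers of peaks (27.78% against 18.09%) and 3 by rank of pileup (8.333% against 11.35%). Wider regions, 2 as reported, were 1 at −log10 q of at least 5 (3.333% against 16.41%) and 1 with 0.5 covered (3.03% against 16.71%). They were 1 within 20 kb (3.448% against 17.24%) and 4 over the median peak width (11.11% against 19.88%). Narrower ones, 6 as reported, were 3 at −log10 q of at least 5 (10% against 13.12%). The median percentile difference, -1.99, was -4.32 with equal numbers of peaks, -0.48 by rank of −log10 q and 0.46 by rank of pileup. The causes were not tested.

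Leaving out 1 library compares 3 libraries and so loosens each rule. KO-only regions were then 2 to 5 (5.89% to 20.7% of all regions), WT-only regions 3 to 7 (6.13% to 17.5%), higher ranks 7 to 9 (29.8% to 52.6% of all shared regions), lower ranks 12 to 20 (22.5% to 37.5%), wider regions 4 to 14 (22.5% to 55.8%), narrower regions 8 to 18 (17.2% to 43.5%), and shared regions 36 to 38 (73.9% to 78.6%), where each range in parentheses is genome-wide. The median percentile difference ran from -4.71 to 0.84, the positive value without KO 2, and the median log2 width ratio from -0.11 to 0.04. Counts moved by over 1.5 times without KO 1 (5 KO-only), KO 2 (4 KO-only, 4 WT-only), WT 2 (4 KO-only) and WT 1 (7 WT-only), without KO 2 (17 narrower) and WT 1 (18 narrower), and without any 1 library for higher and lower ranks and wider regions. The difference in fold percentile at the Nr4a2 gene start, 2.17 as reported, was -1.20 with equal numbers of peaks, -13.7 for the widest peak and -1.70 without WT 1, and those at the gene starts of Egr1, Egr2 and Nr4a1 changed sign when single libraries were left out.

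Same-numbered KO and WT libraries had a correlation of deviations of 0.073, with 2 pairs only, and the labels do not say that the numbers mark pairs. With a replicate block, asking for the same direction in both same-numbered pairs, 6 regions ranked higher (16.7% of the 36, against 30.1% of all shared regions) and 16 lower (44.4% against 21.4%) in KO, 7 were wider (19.4% against 28.8%) and 9 narrower (25.0% against 20.9%). The WT-only region inside Nr4a3 was called in the same libraries under every alternative that kept both WT libraries, while the KO-only region of Nr4a1 was lost in both KO libraries at −log10 q of at least 5. Weak peaks limit these calls, because a site missing from a list has no value and its absence cannot be told from a summit just under the threshold.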
